A study of Mus musculus with 12 samples.

Results

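The imprinted genes are mouse genes that are transcribed mainly from the copy inherited from a single parent. The 40 described here were taken by gene name from a list of genes known to be imprinted in mouse, among the 55471 genes in each expression table, and all 40 were found. They lie in 19 domains on 11 chromosomes. From general knowledge, 26 of them are expressed from the paternal copy, 13 from the maternal copy, and Gnas from either, depending on the transcript and tissue.

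RNA sequencing of mRNA was performed in J1 mouse embryonic stem cells (ESCs), a line of the 129S4/SvJae strain, and in cells differentiated from them. The 12 libraries form 4 groups of 3: Snap29-/- (KO) cells at day 14 of differentiation, Snap29+/+ (WT) cells at day 14, undifferentiated KO ESCs (day 0) and undifferentiated WT ESCs (day 0). KO cells came from CRISPR/Cas9 cutting of exon 2 of Snap29, which encodes a SNARE protein of membrane fusion, and the study names 1 clone, KO-2 with a 1 bp insertion, for the day 0 libraries and no clone for day 14. For differentiation, both genotypes lost LIF, the factor that keeps ESCs undifferentiated, and spent 3 days in hanging drops and 11 days on plates. A difference between KO and WT here is a difference between these libraries, and neither the spread between clones nor the part of other changes in the clone was measured. The study calls the 3 libraries of a group biological replicates and does not say whether they came from separate cultures, so the p values measure the spread between these libraries.

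Imprinting rests on DNA methylation that is laid down differently in egg and sperm at imprinting control regions and is kept through the divisions of the early embryo. Each region governs a cluster of genes, often through a long noncoding RNA that silences its neighbours in cis or through the insulator protein CTCF. Many paternally expressed genes promote growth of the embryo and placenta and many maternally expressed genes restrain it. ESC lines are known for unstable imprints in culture. mRNA levels sum both copies, so which copy a fragment came from could not be told apart in these data, and DNA methylation was not measured.

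The promoters of 5 members are shown because their genes carry the main results: Phlda2, Slc22a18, Peg3, Mest and Plagl1. Phlda2 and Slc22a18 were lower in KO cells on both days, and the start of Peg3 faces that of Usp29. Peg3, Mest and Plagl1 are known to carry the egg-derived methylation at the promoter itself. Each line is the 250 bases before a RefSeq gene start on GRCm38.p6 (mm10), 5′ to 3′ on the strand of the gene, and TGCCGC or its reverse complement GCGGCA, the hexamer that the imprint-keeping protein ZFP57 binds when it is methylated, is in capitals.
Phlda2 (chr7:143502525-143502774, minus strand): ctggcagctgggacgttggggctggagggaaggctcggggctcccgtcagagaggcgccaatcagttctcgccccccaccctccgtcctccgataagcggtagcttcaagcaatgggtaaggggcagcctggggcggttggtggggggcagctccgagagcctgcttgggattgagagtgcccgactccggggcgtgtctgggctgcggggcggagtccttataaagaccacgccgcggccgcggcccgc
Slc22a18 (chr7:143473539-143473788, plus strand): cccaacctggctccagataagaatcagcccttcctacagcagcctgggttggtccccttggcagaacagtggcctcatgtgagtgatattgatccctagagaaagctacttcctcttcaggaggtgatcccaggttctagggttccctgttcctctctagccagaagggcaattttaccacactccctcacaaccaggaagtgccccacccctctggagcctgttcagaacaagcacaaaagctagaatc
Peg3 (chr7:6730420-6730669, minus strand): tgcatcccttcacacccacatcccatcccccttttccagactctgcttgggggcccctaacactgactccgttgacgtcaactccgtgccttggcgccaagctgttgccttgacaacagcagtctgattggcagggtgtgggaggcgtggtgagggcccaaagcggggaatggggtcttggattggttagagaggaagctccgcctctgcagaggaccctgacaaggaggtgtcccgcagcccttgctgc
Mest (chr6:30737800-30738049, plus strand): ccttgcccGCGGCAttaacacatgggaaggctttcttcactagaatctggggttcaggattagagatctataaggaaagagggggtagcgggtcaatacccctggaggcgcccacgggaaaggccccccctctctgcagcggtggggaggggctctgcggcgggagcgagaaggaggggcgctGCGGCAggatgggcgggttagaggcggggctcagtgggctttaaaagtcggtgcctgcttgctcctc
Plagl1 (chr10:13090582-13090831, plus strand): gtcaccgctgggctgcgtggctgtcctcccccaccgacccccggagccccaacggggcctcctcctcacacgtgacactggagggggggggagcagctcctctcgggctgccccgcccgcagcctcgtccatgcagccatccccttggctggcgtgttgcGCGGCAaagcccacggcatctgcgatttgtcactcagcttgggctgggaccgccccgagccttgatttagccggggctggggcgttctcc
The Mest sequence holds 2 matches and the Plagl1 sequence 1, and the other sequences, that of Peg3 among them, hold none. The full RefSeq windows span 300 bases, the last 50 of them after the start. CG pairs, the bases that carry the methylation, number 26 in the full window of Phlda2, 2 in that of Slc22a18, 13 in that of Peg3, 17 in that of Mest and 26 in that of Plagl1, against a median of 7 over all windows. The hexamer was searched on both strands in these windows, and 11.6% of 32851 windows held it, or 13.1% of 27025 genes in any of their windows. Of the 40 imprinted genes, 32 had a window and 12 of them (37.5%) held the hexamer. Among the 10 of these with a germline mark known at the promoter the count was 6, and among the 22 others it was 6. Snrpn, in the first class, and Snurf, in the second, have 1 identical window, and its match is counted for both genes. The windows of Peg3 and Usp29 share 263 bases on opposite strands. These are matches of letters in the C57BL/6J reference, not measurements of binding in J1 cells.

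Library depth was 16638790 to 19226488 fragments assigned to genes. FPKMs (fragments scaled by gene length and library depth, as deposited) were compared as log2(FPKM + 0.1), and fold changes on this scale understate changes of low genes. Snap29 averaged 2.02 ± 0.25 FPKM in KO cells at day 14, against 9.06 ± 0.91 FPKM in WT cells, and 0.561 ± 0.13 FPKM in KO ESCs, against 5.99 ± 0.55 FPKM in WT ESCs (SD, n = 3 each). The chromatin remodeller gene Atrx, which was not targeted, averaged 0.107 ± 0.033 FPKM in KO cells at day 14, against 10.5 ± 3.7 FPKM in WT cells, and 0.155 ± 0.023 FPKM in KO ESCs, against 12.6 ± 0.74 FPKM in WT ESCs, so effects of the losses of Snap29 and Atrx cannot be told apart. At day 14, WT replicate 3 correlated with the KO libraries at 0.954 to 0.960 and with the other WT libraries at 0.953 to 0.958, and day 14 results are therefore also given without it. Because it was chosen for its likeness to KO, leaving it out tends to widen the gaps between KO and WT. Calls gained that way are not separate support.

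In undifferentiated ESCs, the imprinted genes described here were lower in KO far more often than higher. They were chosen with earlier results of these data known, and among 25 other imprinted genes tested, 4 fell (16%) and 3 rose (12%). Of the 29 members that could be tested at day 0, 14 fell in KO (48.3%) and 1 rose (limma, adjusted p under 0.05), while 10.4% of the 19238 genes tested fell and 11.0% rose (21.4% in either direction). The genes that fell were H19, Cdkn1c, Phlda2, Slc22a18, Peg3, Peg12, Ndn, Mkrn3, Snrpn, Mest, Mirg, Plagl1, Grb10 and Impact, and the gene that rose was Zrsr1. The change was at least 2-fold for 6 of the 15. The median log2 change was −0.72 over the 29 members and −0.0043 over all genes tested. All 3 KO libraries lay below all 3 WT libraries for 18 members (20.0% of all genes tested) and above them for 3 (19.9% of all genes). Both parental classes were among the fallen genes: 6 of 9 tested members expressed from the maternal copy fell, with a median log2 change of −0.88, and 8 of 19 tested members expressed from the paternal copy fell, with a median of −0.56. Of the 11 tested members with a germline mark at the promoter, 5 fell and 1 rose. With TPM scaling the median of all genes moved to 0.11, and 11 members were then called lower.

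**Figure D1:**
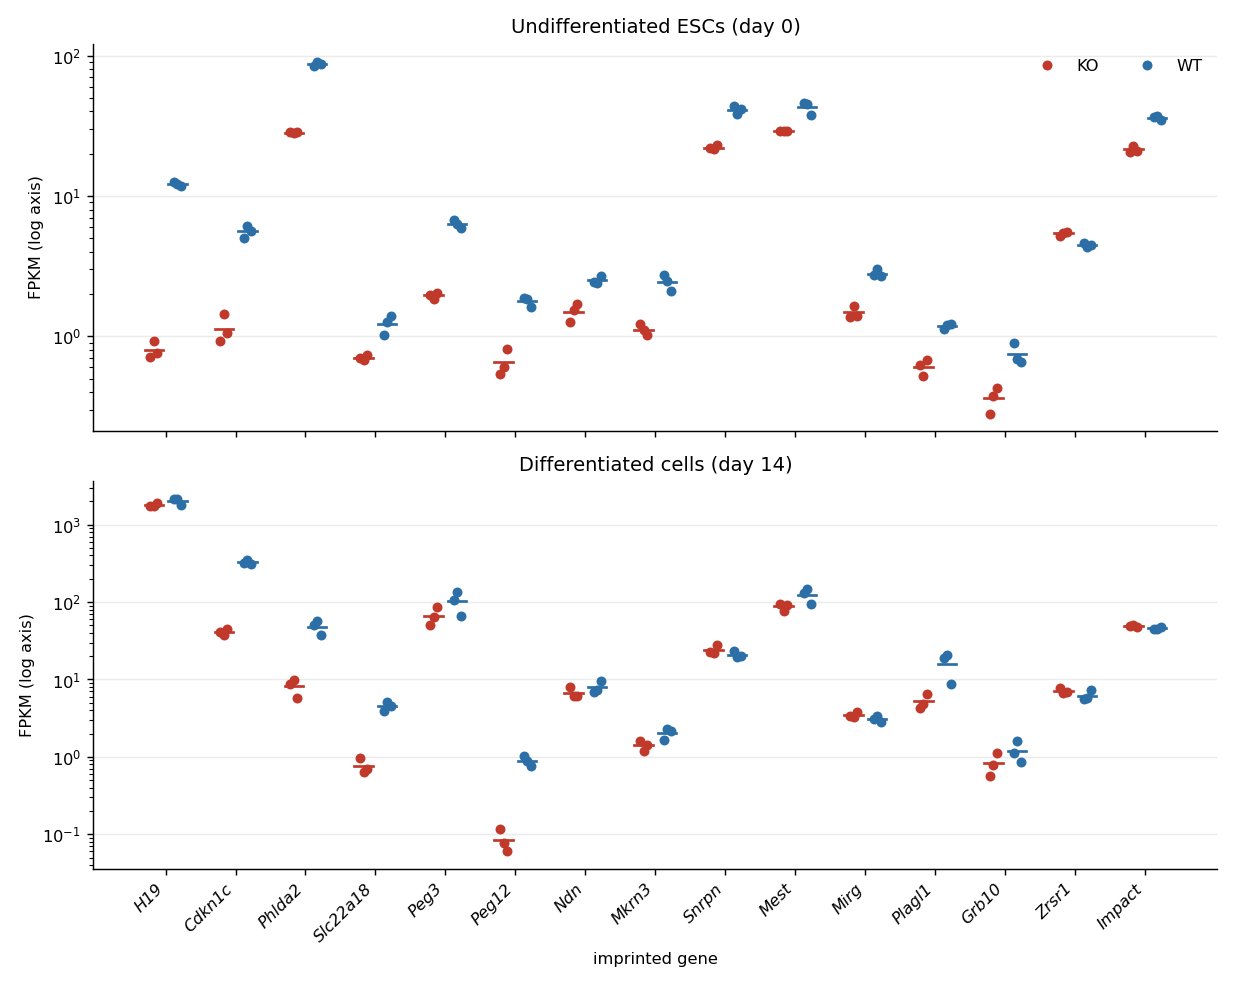
FPKM (log axis) in each library of the 15 imprinted genes called in KO against WT ESCs, with KO (red) left of WT (blue), undifferentiated ESCs above and day 14 below; each point is 1 library and each line a group mean. The KO points lie below the WT points for 14 genes at day 0 and above them for Zrsr1, and at day 14 the separation is wide for Cdkn1c, Phlda2, Slc22a18 and Peg12 and absent for H19, Snrpn and Mirg.

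The largest fall at day 0 was in H19, the maternally expressed long noncoding RNA at the distal end of chromosome 7 (142575529 to 142578143, minus strand, mm10). H19 measured 0.718, 0.931 and 0.760 FPKM in KO ESCs, against 12.7, 12.1 and 11.8 FPKM in WT ESCs. KO libraries held 31 to 40 H19 fragments each, against 514 to 536 in WT libraries, so the groups were far apart. KO ESCs reached 6.59% of the WT level (log2 change −3.77, SE 0.10, adjusted p = 1.3e-05). In differentiated cells H19 was among the most abundant of all transcripts in both genotypes, at 1741, 1744 and 1919 FPKM in KO cells, against 2126, 2143 and 1770 FPKM in WT cells. It ranked 7 to 12 among all genes by FPKM and took 0.443% to 0.576% of the assigned fragments. The groups overlapped, since WT replicate 3 lay among the KO libraries, and H19 did not pass the test at day 14 (log2 change −0.16, SE 0.13, adjusted p = 0.51).

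Igf2, the paternally expressed growth factor that shares enhancers with H19 (chromosome 7, 142650766 to 142666816, minus strand), was nearly silent in ESCs and was switched on by day 14. At day 0 it had 1, 0 and 0 fragments in KO ESCs, against 7, 4 and 7 in WT ESCs, too few for the test. Pooled over libraries, the ratio of KO to WT was 0.0568 (95% interval 0.00136 to 0.36, which covers counting error only), and with no filter on low genes the adjusted p was 0.058. At day 14 Igf2 measured 6.82, 8.19 and 11.8 FPKM in KO cells, against 24.1, 24.6 and 14.5 FPKM in WT cells. All KO libraries lay below all WT libraries, and KO cells reached 42.4% of the WT level (log2 change −1.23, SE 0.27, adjusted p = 0.070). Without WT replicate 3 the difference passed the test (log2 change −1.47, adjusted p = 0.017). The ratio of H19 to Igf2, both per length, was 255, 213 and 163 in KO cells, against 88.2, 87.2 and 122 in WT cells at day 14. Of the Igf2 exonic bases, 64.6% are shared with Gm49394 on the same strand or Igf2os on the opposite strand. H19 is also the host of the microRNA Mir675. Reads in shared bases could be left uncounted or assigned to these other genes. The Igf2 level could then be understated, and the ratio of H19 to Igf2 overstated, in both genotypes.

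The cluster of Cdkn1c, Phlda2 and Slc22a18 on distal chromosome 7 was the only domain in which every tested member fell on both days. These maternally expressed genes are silenced on the paternal copy by the long noncoding RNA Kcnq1ot1. Cdkn1c, which encodes the cyclin-dependent kinase inhibitor p57 (143458339 to 143461050, minus strand), measured 0.922, 1.43 and 1.06 FPKM in KO ESCs, against 5.02, 6.11 and 5.65 FPKM in WT ESCs. All KO values were under 1.5 FPKM and all WT values over 5 (log2 change −2.22, SE 0.16, adjusted p = 0.00030). At day 14 Cdkn1c measured 41.6, 37.8 and 45.4 FPKM in KO cells, against 323, 348 and 307 FPKM in WT cells. The gap was wider than the spread of either group, and KO cells reached 12.8% of the WT level (log2 change −2.97, SE 0.097, adjusted p = 0.00028). Of its exonic bases, 30.7% are shared with Gm44732 on the opposite strand, and whether counting used the strand is not stated.

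Phlda2, which encodes a pleckstrin homology domain protein that limits growth of the placenta (143501545 to 143503150, minus strand, promoter printed above), measured 28.6, 27.9 and 28.5 FPKM in KO ESCs, against 84.4, 90.7 and 87.6 FPKM in WT ESCs. The libraries of each group were nearly alike and far from the other group (log2 change −1.63, SE 0.039, adjusted p = 9.4e-06). At day 14 it measured 8.66, 9.88 and 5.84 FPKM in KO cells, against 51.1, 56.7 and 37.1 FPKM in WT cells. KO replicate 3 and WT replicate 3 were the lowest of their groups, and the groups did not overlap (log2 change −2.57, SE 0.23, adjusted p = 0.0074). Slc22a18, a gene of the organic cation transporter family (143473736 to 143499334, plus strand), measured 0.704, 0.674 and 0.733 FPKM in KO ESCs, against 1.03, 1.26 and 1.41 FPKM in WT ESCs. All KO values lay below all WT values (log2 change −0.72, SE 0.16, adjusted p = 0.021), but the call rested on 20 to 44 fragments per library and was lost, with adjusted p of 0.054 to 0.070, without KO replicate 1 or 2 or WT replicate 2 or 3, and with an adjusted p of 0.071 in TPM. At day 14 Slc22a18 measured 0.968, 0.631 and 0.695 FPKM in KO cells, against 3.95, 5.15 and 4.51 FPKM in WT cells. The day 14 gap was much larger (log2 change −2.43, SE 0.21, adjusted p = 0.0061), and no other gene shares exonic bases with Phlda2 or Slc22a18.

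The other members of the domain were too low for the test. Kcnq1ot1 had 124, 112 and 181 fragments in KO ESCs, against 84, 72 and 96 in WT ESCs, over an annotated length of 93092 bases. All KO libraries had more than all WT libraries (pooled ratio 1.69, 95% interval 1.44 to 1.99 from counting error only), but with no filter on low genes its adjusted p was 0.47, and 6.02% of all genes rose in that fit. At day 14 it had 150, 184 and 131 fragments in KO cells, against 127, 167 and 89 in WT cells, and the groups overlapped. Kcnq1, the potassium channel gene in which Kcnq1ot1 starts, had at most 6 fragments in a KO library and at most 12 in a WT library over both days.

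Most genes farther from Cdkn1c did not pass the test on either day, and those named here were chosen after their values were seen. Nap1l4, a histone chaperone gene whose start lies 88.1 kb away, averaged 70.0 FPKM in KO and 72.2 FPKM in WT ESCs (log2 change −0.044, SE 0.038, adjusted p = 0.47). At day 14 it averaged 50.1 FPKM in KO cells, against 51.2 FPKM in WT cells (log2 change −0.030, SE 0.091, adjusted p = 0.87). Cars, a tRNA synthetase gene at 139 kb, and Cd81, a tetraspanin gene on the other side, did not pass the test on either day. At day 0 Tnfrsf22, a decoy receptor gene, rose (log2 change 0.44, adjusted p = 0.0014), the antisense RNA Tspan32os fell (log2 change −0.97, adjusted p = 0.030), and Ascl2, an imprinted transcription factor gene of trophoblast, fell to 0.841 FPKM in KO, against 2.11 FPKM in WT ESCs (log2 change −1.30, SE 0.30, adjusted p = 0.023). At day 14 the only non-member called in this window was Gm23297, which is listed at 0 in all KO libraries and averaged 0.526 FPKM in WT cells. Around all 19 domains, within 500 kb, 195 genes on neither list of imprinted genes were tested at day 0 and 222 at day 14. At day 0, 16 rose and 27 fell (13.8% lower, against 10.4% of all genes tested). At day 14, 2 rose and 4 fell (1.80% lower, against 0.883% of all genes tested). The domains differed at day 0, and those given here were chosen after their values were seen. Around H19 and Igf2, 3 of 6 such genes fell and 0 rose. In the Dlk1-Dio3 surroundings 5 of 17 fell and 1 rose, and near Impact 2 of 5 rose and 0 fell.

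**Figure D2:**
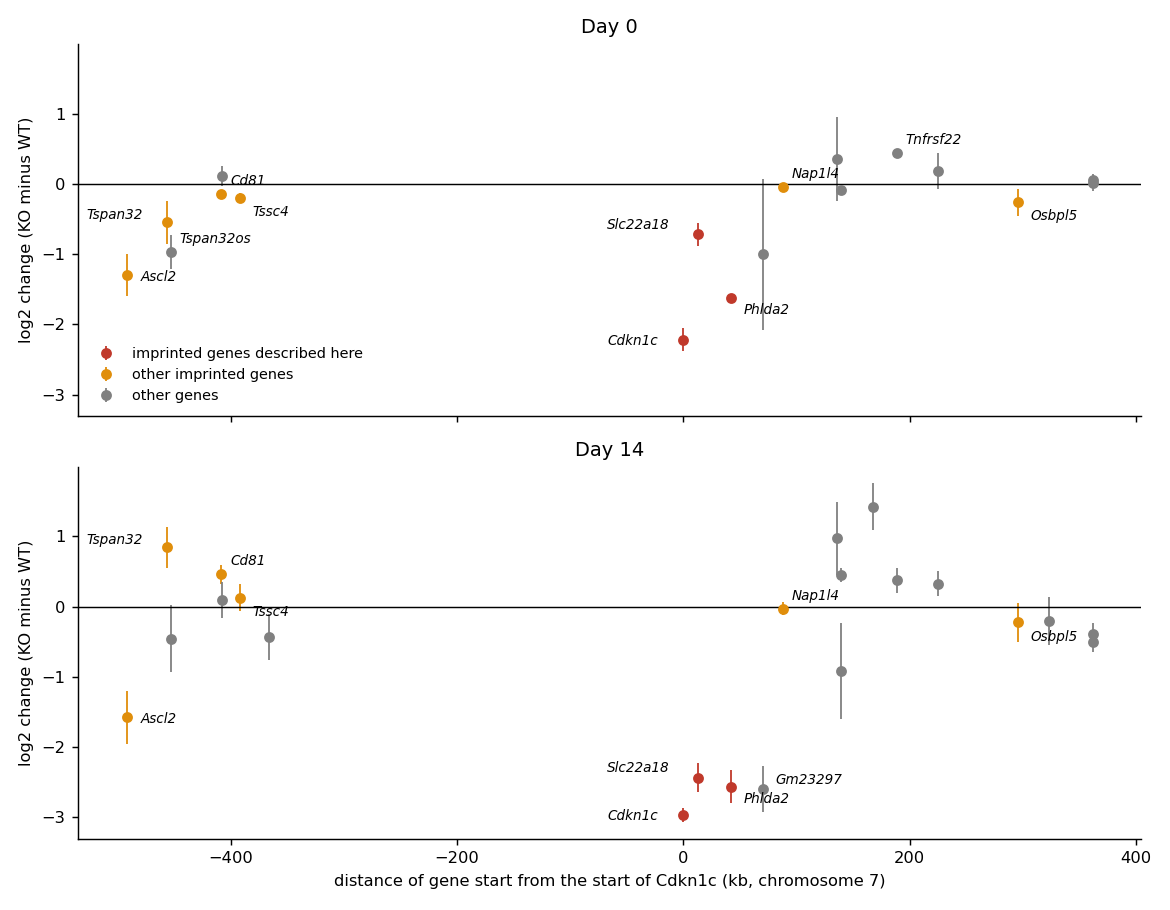
Log2 change of FPKM + 0.1 (KO minus WT, bars: SE) of tested genes within 500 kb of Cdkn1c against the distance of their starts in kb, day 0 above and day 14 below; red, Cdkn1c, Slc22a18 and Phlda2, orange, other imprinted genes, grey, other genes. The 3 red points lie between −0.72 and −2.22 at day 0 and between −2.43 and −2.97 at day 14, while Nap1l4 lies at −0.04 and −0.03; Gm23297 had no fragments in KO cells at day 14, so its plotted value depends on the added 0.1.

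In the Peg3 domain on proximal chromosome 7 all 3 members were lower in every KO ESC library, and only Peg3 passed the test. Of all genes tested at day 0, 20.0% had all KO libraries below all WT libraries. Peg3, which encodes a zinc finger protein of growth and maternal behaviour (6703892 to 6730431, minus strand), measured 1.97, 1.85 and 2.05 FPKM in KO ESCs, against 6.75, 6.36 and 5.96 FPKM in WT ESCs. The 3 KO values were within 0.2 FPKM of each other and all WT values lay above them (log2 change −1.65, SE 0.080, adjusted p = 6.6e-05). At day 14 Peg3 measured 51.2, 63.9 and 85.8 FPKM in KO cells, against 107, 134 and 65.95 FPKM in WT cells. The groups overlapped through WT replicate 3 (log2 change −0.58, SE 0.29, adjusted p = 0.31, and adjusted p = 0.053 without that library). Usp29, a ubiquitin protease gene transcribed from the same start region in the other direction, measured 0.0945, 0.155 and 0.119 FPKM in KO ESCs, against 0.273, 0.218 and 0.282 FPKM in WT ESCs (log2 change −0.69, SE 0.25, adjusted p = 0.098). At day 14 it measured 1.47, 1.60 and 1.45 FPKM in KO cells, against 2.63, 2.88 and 2.09 FPKM in WT cells (log2 change −0.70, SE 0.17, adjusted p = 0.091, and 0.025 without WT replicate 3). The groups of Usp29 did not overlap on either day. Zim1, a maternally expressed zinc finger gene, stayed under 0.5 FPKM in all 12 libraries and did not pass the test on either day.

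In the Snrpn domain on central chromosome 7, the region of Prader-Willi and Angelman syndromes in human, 4 of 6 tested members fell in KO ESCs: Peg12, Mkrn3, Snrpn and Ndn. Peg12, a gene of the GSK3-binding Frat family (62461871 to 62464510, minus strand), measured 0.539, 0.607 and 0.815 FPKM in KO ESCs, against 1.87, 1.84 and 1.63 FPKM in WT ESCs. The groups were separate (log2 change −1.33, SE 0.17, adjusted p = 0.0026). At day 14 Peg12 had 6, 4 and 3 fragments in KO cells, against 50, 49 and 40 in WT cells, so that KO cells reached 9.52% of the WT level (log2 change −2.43, SE 0.27, adjusted p = 0.013). The day 14 call was lost, with adjusted p of 0.059 to 0.071, when any 1 library other than WT replicate 3 was left out.

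Snrpn, which encodes the splicing protein SmN, measured 21.8, 21.5 and 22.9 FPKM in KO ESCs, against 43.8, 38.1 and 41.7 FPKM in WT ESCs. KO ESCs had 53.6% of the level in WT (log2 change −0.90, SE 0.059, adjusted p = 0.00019). At day 14 it measured 22.8, 21.8 and 27.8 FPKM in KO cells, against 23.3, 19.4 and 19.9 FPKM in WT cells, and the groups overlapped (adjusted p = 0.39). Mkrn3, a RING finger gene, measured 1.23, 1.10 and 1.02 FPKM in KO ESCs, against 2.74, 2.48 and 2.11 FPKM in WT ESCs (log2 change −1.06, SE 0.13, adjusted p = 0.0025). Ndn, which encodes the MAGE family protein necdin, measured 1.26, 1.55 and 1.69 FPKM in KO ESCs, against 2.46, 2.40 and 2.71 FPKM in WT ESCs (log2 change −0.72, SE 0.13, adjusted p = 0.0094). Neither passed the test at day 14. Magel2, another MAGE family gene, had 5 to 10 fragments per library in KO and 17 to 34 in WT cells over both days and passed the test on neither (adjusted p = 0.099 at day 0 and 0.16 at day 14). Ube3a, the ubiquitin ligase gene that is maternally expressed in neurons and expressed from both copies elsewhere, measured 4.53, 4.86 and 5.04 FPKM in KO ESCs, against 4.78, 4.93 and 4.10 FPKM in WT ESCs (log2 change 0.065, SE 0.088, adjusted p = 0.65). Of the Snrpn exonic bases 34.1% are shared, among others with Snurf, whose own exonic bases are all shared and which is listed at 0 in all 12 libraries. Of 179 protein-coding genes with all exonic bases shared, 142 (79.3%) are listed at 0 in all 12 libraries, against 13.7% of 15933 with under 1% shared. Of the Ube3a exonic bases 27.3% are shared with genes on the opposite strand.

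Outside chromosome 7, 5 members fell in KO ESCs. Mest, which encodes a hydrolase family protein and is widely expressed in embryonic mesoderm, measured 29.0, 29.1 and 29.0 FPKM in KO ESCs, against 45.7, 45.3 and 37.9 FPKM in WT ESCs. The KO libraries were almost identical and below all WT libraries (log2 change −0.56, SE 0.074, adjusted p = 0.0029, and 0.088 with TPM scaling). Of the Mest exonic bases, 23.1% are shared with Copg2 on the opposite strand. Impact, which encodes an inhibitor of the amino acid sensor kinase GCN2, measured 20.7, 22.8 and 20.8 FPKM in KO ESCs, against 36.5, 37.1 and 34.8 FPKM in WT ESCs (log2 change −0.75, SE 0.052, adjusted p = 0.00022). Plagl1, a zinc finger transcription factor gene, measured 0.627, 0.520 and 0.674 FPKM in KO ESCs, against 1.13, 1.21 and 1.23 FPKM in WT ESCs. These groups also did not overlap (log2 change −0.87, SE 0.15, adjusted p = 0.0084, and 0.070 with all 4 groups in one fit). Mirg, a maternally expressed microRNA host of the Dlk1-Dio3 domain on chromosome 12, measured 1.38, 1.66 and 1.41 FPKM in KO ESCs, against 2.72, 3.01 and 2.67 FPKM in WT ESCs (log2 change −0.88, SE 0.11, adjusted p = 0.0024). Grb10, which encodes an adaptor that restrains insulin and IGF receptor signalling, measured 0.282, 0.378 and 0.430 FPKM in KO ESCs, against 0.902, 0.689 and 0.657 FPKM in WT ESCs. Its groups did not overlap (log2 change −0.88, SE 0.22, adjusted p = 0.030), but its call was lost, with adjusted p of 0.060 to 0.098, without KO replicate 1 or 2 or any 1 WT replicate.

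Zrsr1, a splicing factor gene that arose as a retrocopy of the X-linked Zrsr2, was the member that rose in KO ESCs. It measured 5.21, 5.48 and 5.54 FPKM in KO ESCs, against 4.61, 4.36 and 4.45 FPKM in WT ESCs (log2 change 0.27, SE 0.059, adjusted p = 0.020). The call was lost, with adjusted p of 0.051 to 0.070, without KO replicate 2 or 3 or WT replicate 2 or 3. Its source gene Zrsr2 averaged 6.37 FPKM in KO and 7.66 FPKM in WT ESCs (log2 change −0.26, SE 0.074, adjusted p = 0.046). Mcts2, a retrocopy of the X-linked translation factor gene Mcts1, averaged 27.2 FPKM in KO and 25.5 FPKM in WT ESCs (log2 change 0.095, SE 0.044, adjusted p = 0.18), and Mcts1 fell (log2 change −0.23, SE 0.048, adjusted p = 0.016). Reads of a retrocopy and its source can be confused, so both pairs are uncertain.

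The remaining tested members did not pass the test at day 0. Peg10, a retrotransposon-derived gene needed for the placenta, averaged 11.6 FPKM in KO and 10.7 FPKM in WT ESCs (log2 change 0.12, SE 0.075, adjusted p = 0.33). Igf2r, the receptor that clears Igf2, averaged 12.6 FPKM in KO and 13.1 FPKM in WT ESCs (log2 change −0.059, SE 0.053, adjusted p = 0.49). Zdbf2, a zinc finger gene, averaged 10.4 FPKM in KO and 10.1 FPKM in WT ESCs (log2 change 0.046, SE 0.10, adjusted p = 0.80). For these 3 genes the fitted change was under 0.2 on the log2 scale. Gnas, which encodes the alpha subunit of the stimulatory G protein, measured 2.12, 1.84 and 2.06 FPKM in KO ESCs, against 1.42, 1.69 and 1.34 FPKM in WT ESCs, with no overlap (log2 change 0.42, SE 0.12, adjusted p = 0.056), and 22.0% of its exonic bases are shared with genes on the opposite strand. Nnat, a neuronal proteolipid gene, measured 4.45, 5.45 and 4.31 FPKM in KO ESCs, against 6.07, 5.80 and 5.67 FPKM in WT ESCs (log2 change −0.31, SE 0.097, adjusted p = 0.068, and 0.013 without KO replicate 2). Dio3, a thyroid hormone deiodinase gene, Sgce, a sarcoglycan gene, Nap1l5, a nucleosome assembly family gene, and the noncoding RNA Peg13 were all at or under about 1 FPKM and their groups overlapped.

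In differentiated cells 4 members fell in KO, Cdkn1c, Phlda2, Slc22a18 and Peg12, all of which had also fallen in ESCs, and 0 rose. The test covered 32 members, and 0.883% of the 20506 genes tested fell while 1.45% rose. At an unadjusted p under 0.05, 14 members were lower and 0 higher, and voom on the fragment counts called 7 lower and 0 higher. The shares of all genes at that unadjusted p and under voom were not counted, so these counts cannot be set against other genes. The median log2 change was −0.50 over the 32 members and 0.028 over all genes tested, and 26 of the 32 changes were negative. All 3 KO libraries lay below all 3 WT libraries for 15 members (11.4% of all genes tested) and above them for 1 (15.1%). Without WT replicate 3 the test called 10 members lower, the same 4 with Igf2, Plagl1, Nnat, Usp29, Mest and Peg10, while 5.00% of all genes fell and 8.80% rose. Since that library was left out for its likeness to KO, wider gaps can follow from the choice itself.

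Plagl1 measured 4.28, 4.82 and 6.51 FPKM in KO cells at day 14, against 18.9, 20.7 and 8.63 FPKM in WT cells. WT replicate 3 lay near the KO libraries but above all of them (log2 change −1.53, SE 0.34, adjusted p = 0.074, and log2 change −1.93, adjusted p = 0.0064 without WT replicate 3). Nnat measured 5.20, 3.88 and 8.63 FPKM in KO cells, against 25.8, 51.4 and 14.3 FPKM in WT cells (log2 change −2.24, SE 0.48, adjusted p = 0.068, and 0.017 without WT replicate 3). Its WT libraries differed widely, and the groups still did not overlap. Peg10 measured 252, 311 and 288 FPKM in KO cells, against 441, 465 and 312 FPKM in WT cells (log2 change −0.50, SE 0.17, adjusted p = 0.17, and log2 change −0.68, adjusted p = 0.019 without WT replicate 3). Mest measured 93.7, 77.5 and 92.3 FPKM in KO cells, against 130, 149 and 93.9 FPKM in WT cells (log2 change −0.48, SE 0.18, adjusted p = 0.20, and log2 change −0.67, adjusted p = 0.021 without WT replicate 3). In each of these genes WT replicate 3 was the WT library nearest to KO.

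Cell type markers differed between the day 14 groups beside these results, and in bulk samples fewer cells of a type and less RNA per cell cannot be told apart. Summed FPKMs of 14 trophoblast markers were 154 to 194 in KO and 292 to 544 in WT cells, with 7 of 13 tested markers lower, among them Ctsj at 0.256 ± 0.043 FPKM in KO and 79.2 ± 39.3 FPKM in WT cells (SD, n = 3 each), and with Synb at 0 in both. Those of 10 yolk sac endoderm markers were 1.82 to 2.11 in KO and 5.65 to 30.6 in WT cells, with 1 of 9 lower. The sums were 87.8 to 98.8 in KO and 149 to 178 in WT cells for 10 mesenchyme markers (1 of 10 lower), and 15.1 to 19.6 in KO and 24.8 to 55.7 in WT cells for 8 endothelial markers (2 of 7 lower). In the other direction, 10 muscle markers summed to 268 to 361 in KO and 55.3 to 149 in WT cells (2 of 10 higher), and 10 neural markers to 30.1 to 35.3 in KO and 18.3 to 24.5 in WT cells (1 of 8 higher). Blood marker sums were 2.28 to 5.56 in KO and 2.68 to 9.59 in WT cells. Markers of pluripotent cells were still present at day 14, with sums of 3274 to 3733 in KO and 2324 to 3125 in WT cells, against 4132 to 4658 in KO and 3830 to 4030 in WT ESCs. Of these 10 markers, 9 were called lower at day 14 than at day 0 in each genotype, and 1 was called higher in KO. Their median log2 change from day 0 to day 14 was −1.3 in KO and −1.5 in WT. The sums follow the most abundant markers and understate this fall. WT replicate 3 had the lowest trophoblast, yolk sac, mesenchyme, neural and endothelial sum and the highest muscle and blood sum of the 3 WT libraries. At day 0 the trophoblast sums were 0.511 to 0.861 in KO and 0.485 to 0.795 in WT ESCs, with 9 of the 14 markers at 0 in each group. Other marker sums did not overlap at day 0: those of muscle were 38.3 to 42.3 in KO and 26.1 to 26.9 in WT ESCs (3 of 7 tested higher, 2 lower), of neural cells 169 to 197 in KO and 125 to 132 in WT ESCs (3 of 8 higher, 3 lower), of mesenchyme 5.18 to 6 in KO and 7.10 to 8.03 in WT ESCs (1 of 4 lower), and of endothelium 13.6 to 14.2 in KO and 16.3 to 18.0 in WT ESCs (2 of 4 lower). The yolk sac and blood sums overlapped between KO and WT ESCs. The part of cell composition in the differences of imprinted genes was not tested on either day.

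**Figure D3:**
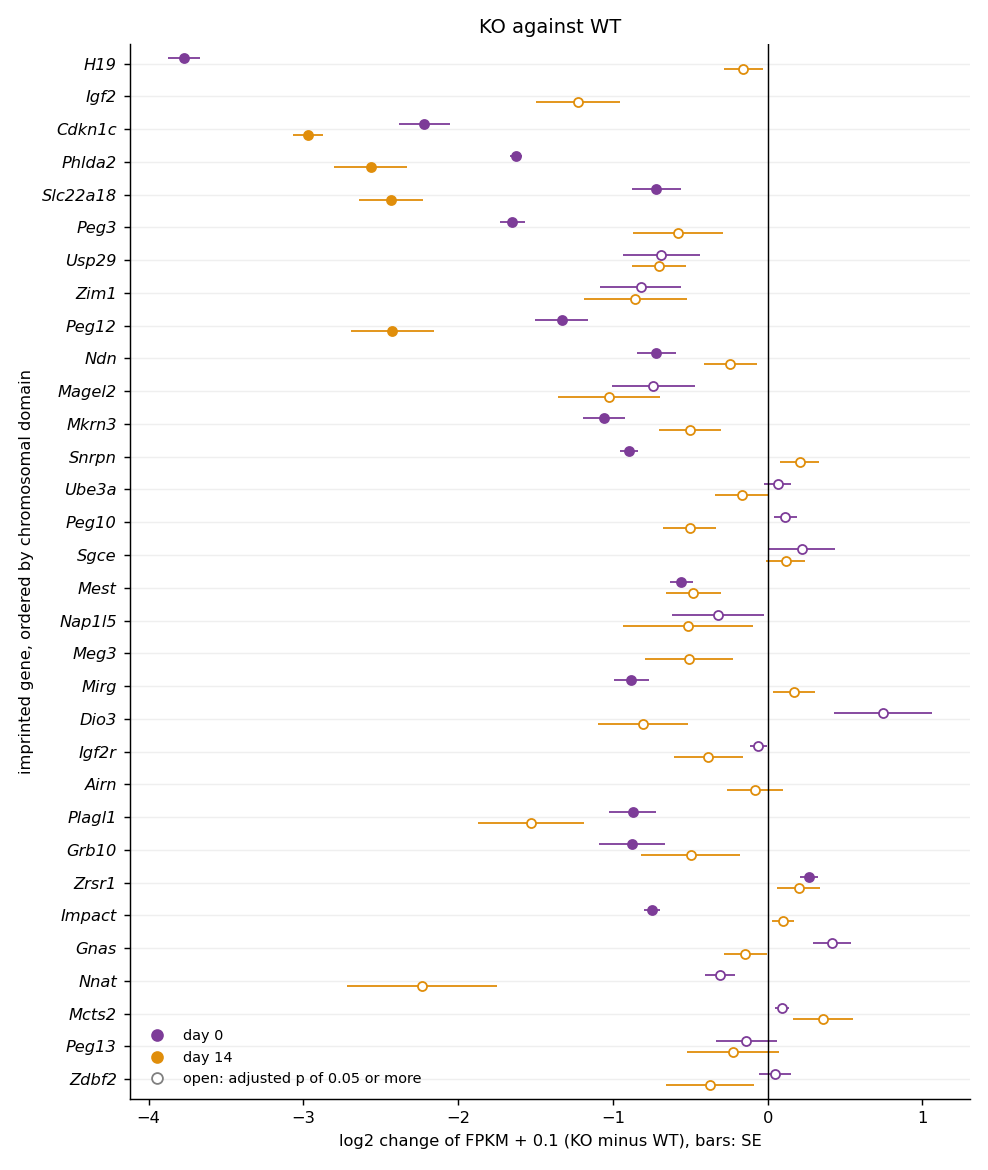
Log2 change of FPKM + 0.1 in KO against WT (bars: SE) for the 32 tested imprinted genes ordered by chromosomal domain, purple for day 0 and orange for day 14; filled points have an adjusted p under 0.05. Filled points lie left of 0 for 14 genes at day 0 and 4 at day 14, and Zrsr1 is the filled point right of 0.

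Differentiation itself raised many imprinted genes in both genotypes. In KO 18 of 32 tested members rose by day 14 and 5 fell, while of all 20347 genes tested 33.5% rose and 29.8% fell (63.3% in either direction). In WT 19 rose and 4 fell, while of all 20326 genes 29.0% rose and 26.4% fell (55.5% in either direction). All day 14 libraries lay above all day 0 libraries for 19 members in KO and below them for 6 (35.7% and 32.9% of all genes), and above for 19 in WT and below for 5 (33.0% and 31.2%). The median log2 change was 0.94 in KO and 1.01 in WT, against 0.013 and 0.0032 over all genes. The 2 comparisons called 16 members higher in both genotypes and 3 lower in both, Phlda2, Peg12 and Mcts2. Of the members tested, 3 in KO (Igf2, Meg3 and Airn) and 2 in WT (Igf2 and Airn) passed the filter on low values through their day 14 libraries alone. Together the 40 members took 0.848% to 0.984% of fragments in KO and 1.05% to 1.44% in WT cells at day 14, against 0.0871% to 0.0981% in KO and 0.119% to 0.128% in WT ESCs.

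H19 reached the highest level of the members at day 14, with a mean of 1801 ± 102 FPKM in KO cells at day 14, against 0.803 ± 0.11 FPKM in KO ESCs, and of 2013 ± 211 FPKM in WT cells at day 14, against 12.2 ± 0.44 FPKM in WT ESCs (SD, n = 3 each). Its log2 changes were 10.97 (SE 0.096) in KO and 7.35 (SE 0.091) in WT. Igf2 had 2933 fragments in KO cells at day 14, against 1 in KO ESCs (ratio 2701, 95% interval 484 to 1.07e+05), and 7126 in WT cells at day 14, against 18 in WT ESCs (ratio 383, 95% interval 242 to 646, counting error only). Cdkn1c rose by 5.09 in KO and 5.84 in WT on the log2 scale, Peg10 by 4.59 and 5.21, Peg3 by 5.00 and 3.93, Sgce by 4.04 and 4.14, and Plagl1 by 2.89 and 3.55. Airn, the paternal long noncoding RNA that silences Igf2r, had 461 fragments in KO cells at day 14, against 9 in KO ESCs, and 499 in WT cells at day 14, against 6 in WT ESCs. Igf2r itself rose in both genotypes, by 1.48 in KO and 1.80 in WT on the log2 scale.

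**Figure D4:**
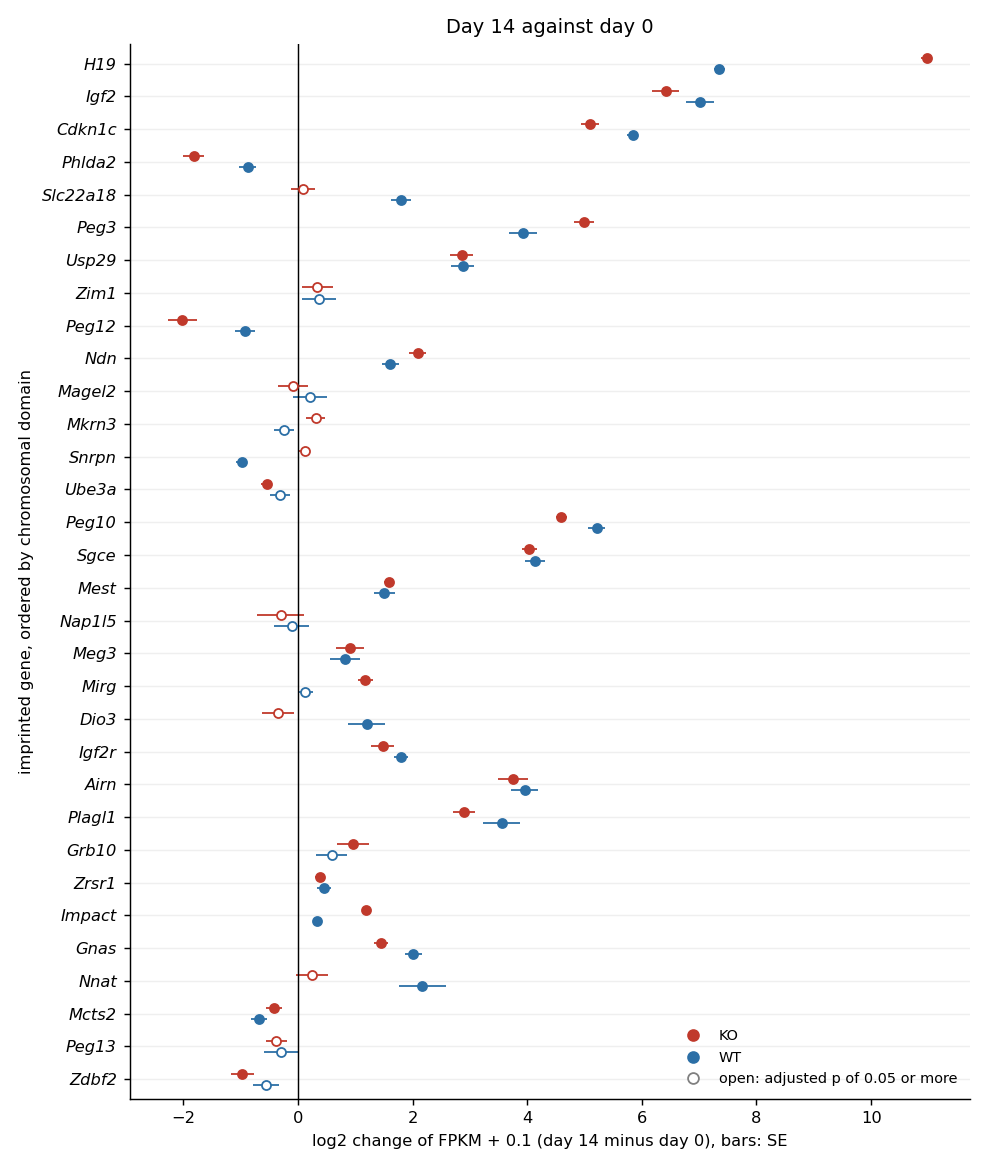
Log2 change of FPKM + 0.1 from day 0 to day 14 (bars: SE) for the 32 tested imprinted genes in KO (red) and WT (blue); filled points have an adjusted p under 0.05. H19 stands farthest right, at 10.97 in KO and 7.35 in WT, and Slc22a18 and Nnat have an open KO point near 0 and a filled WT point at 1.80 and 2.17; the Igf2 and Airn points depend on the added 0.1.

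Some members moved with differentiation in WT and were not called in KO. Slc22a18 averaged 0.765 FPKM in KO cells at day 14, against 0.704 FPKM in KO ESCs (adjusted p = 0.73), and 4.54 FPKM in WT cells at day 14, against 1.23 FPKM in WT ESCs (log2 change 1.80, SE 0.17, adjusted p = 0.00018). Nnat gave 5.90 FPKM in KO cells at day 14, against 4.74 FPKM in KO ESCs (adjusted p = 0.47), and 30.5 FPKM in WT cells at day 14, against 5.85 FPKM in WT ESCs (log2 change 2.17, SE 0.41, adjusted p = 0.0040). Snrpn was the member that fell in WT alone, to 20.9 FPKM at day 14, against 41.2 FPKM in WT ESCs (log2 change −0.98, SE 0.097, adjusted p = 0.00021), while KO had 24.2 FPKM at day 14, against 22.1 FPKM in KO ESCs (adjusted p = 0.31). Dio3 was called higher in WT and not in KO (log2 change 1.20, SE 0.32, adjusted p = 0.017 in WT, and 0.056 without WT replicate 2 of day 14). Mirg and Grb10 were called higher in KO and not in WT, and Ube3a (log2 change −0.55) and Zdbf2 (log2 change −0.97) were called lower in KO and not in WT. The Grb10 call in KO was lost, with adjusted p of 0.051 and 0.065, without KO replicate 2 of day 14 or KO replicate 1 of day 0, and without WT replicate 3 of day 14 Grb10 was called higher in WT as well (adjusted p = 0.032). Without WT replicate 2 of day 14, Zdbf2 was called lower in WT as well (adjusted p = 0.024). Of these genes Slc22a18, Snrpn and Mirg also passed the test of the difference between genotypes given next, while Nnat (adjusted p = 0.059), Dio3 (0.063), Zdbf2 (0.50), Ube3a (0.52) and Grb10 (0.62) did not.

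Whether the KO effect itself differed between the days was tested as an interaction over all 12 libraries, which share their WT and KO libraries with the comparisons above. It passed the test for 7 of 32 members, 4 with a higher and 3 with a lower KO effect at day 14, while 7.13% of 22913 genes passed (4.22% higher and 2.91% lower). For H19 (3.62, SE 0.14, adjusted p = 6.8e-07), Snrpn (1.10, SE 0.14, adjusted p = 0.0017), Mirg (1.05, SE 0.17, adjusted p = 0.0047) and Impact (0.85, SE 0.081, adjusted p = 0.00036), on the log2 scale, KO was lower than WT in ESCs and did not pass the test against WT at day 14. For Slc22a18 (−1.72, SE 0.25, adjusted p = 0.0035), Peg12 (−1.09, SE 0.29, adjusted p = 0.047) and Cdkn1c (−0.75, SE 0.19, adjusted p = 0.042) the gap was wider at day 14. The Cdkn1c call was lost without any 1 of 8 libraries (adjusted p = 0.057 to 0.098) and the Peg12 call without any 1 of 11 (adjusted p = 0.050 to 0.12). Impact measured 48.6, 50.6 and 47.7 FPKM in KO cells at day 14, against 45.4, 44.6 and 47.0 FPKM in WT cells, and Mirg 3.33, 3.26 and 3.81 FPKM in KO cells, against 3.09, 3.33 and 2.79 FPKM in WT cells.

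In the Dlk1-Dio3 domain on chromosome 12, Dlk1, Rtl1, Meg3 and Rian were low throughout. Mirg measured 1.38 to 3.81 FPKM over the 12 libraries and Dio3 0.294 to 1.53 FPKM. Dlk1, which encodes a membrane ligand of adipocyte and muscle precursors, had 1 and 2 fragments in 2 KO libraries at day 14 and 0 in the other 10 libraries, and the retrotransposon-derived Rtl1 is listed at 0 in all 12. Meg3, the maternal long noncoding RNA of the domain, had 12, 3 and 10 fragments in KO ESCs, against 26, 32 and 29 in WT ESCs (pooled ratio 0.294, 95% interval 0.18 to 0.463, counting error only, and adjusted p = 0.10 with no filter). At day 14 it had 45, 50 and 47 fragments in KO cells, against 100, 87 and 67 in WT cells (log2 change −0.51, SE 0.28, adjusted p = 0.36). All KO libraries had fewer Meg3 fragments than all WT libraries on both days. Rian, a host of small nucleolar RNAs, stayed under 0.1 FPKM in all 12 libraries, as did Rasgrf1, a Ras activator gene, in KO, and Slc22a3, a cation transporter gene of the Igf2r domain, had at most 11 fragments in a library. Rasgrf1 had 41 fragments in KO cells at day 14, against 3 in KO ESCs (ratio 12.6, 95% interval 4.01 to 63.5), and 65 in WT cells at day 14, against 5 in WT ESCs (ratio 12.6, 95% interval 5.12 to 39.99), and Slc22a3 had 25 in WT cells at day 14, against 1 in WT ESCs (ratio 24.2, 95% interval 3.96 to 992, counting error only).

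Of 32 other imprinted genes, 25 were tested. At day 0, 3 rose (12%) and 4 fell (16%), against 11.0% and 10.4% of all genes tested, and their median log2 change was −0.044. Atp10a, a phospholipid transporter gene, fell to 0.261 FPKM in KO, against 1.86 FPKM in WT ESCs (log2 change −2.46, SE 0.21, adjusted p = 0.00047), Sfmbt2, a Polycomb family gene, to 0.451 FPKM in KO, against 1.28 FPKM in WT ESCs (log2 change −1.32, adjusted p = 0.0014), and Smoc1, a matrix protein gene, to 3.55 FPKM in KO, against 7.24 FPKM in WT ESCs (log2 change −1.01, adjusted p = 0.00018). Gab1, an adaptor gene of receptor kinases, rose to 128 FPKM in KO, against 105 FPKM in WT ESCs (log2 change 0.29, adjusted p = 0.0072). At day 14 limma called 0 of the 25, with 5 higher and 3 lower at an unadjusted p under 0.05, and voom also called 0. The share of all genes at that unadjusted p was not counted.

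Of 24 genes that set or keep imprints, 4 rose (16.7%) and 7 fell (29.2%) in KO ESCs, against 11.0% and 10.4% of all genes tested. Besides Atrx, Dnmt3l, the cofactor of the methyltransferases that set imprints in germ cells, fell to 14.5 ± 2.3 FPKM in KO, against 51.9 ± 2.8 FPKM in WT ESCs (SD, n = 3 each; log2 change −1.84, SE 0.11, adjusted p = 0.00012). Dppa3, which encodes a protein that protects imprints in the zygote, fell to 0.894 FPKM in KO, against 3.95 FPKM in WT ESCs (log2 change −2.04, SE 0.17, adjusted p = 0.00043). Zfp57 moved the other way, to 97.9 ± 2.2 FPKM in KO, against 66.1 ± 1.5 FPKM in WT ESCs (log2 change 0.57, SE 0.037, adjusted p = 0.00019). At day 14 Atrx was lower and Zfp57 higher, at 36.7 FPKM in KO and 24.1 FPKM in WT cells (log2 change 0.61, adjusted p = 0.034), and no other gene of the 24 passed the test. The part of these changes in the levels of imprinted genes was not tested.

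Of 16 other genes of the IGF pathway, 12 were tested at day 0. In KO ESCs 1 rose (8.33%) and 4 fell (33.3%), against 11.0% and 10.4% of all genes tested. Igf2bp2, which encodes a protein that binds Igf2 mRNA, fell to 6.84 FPKM in KO, against 15.9 FPKM in WT ESCs (log2 change −1.21, SE 0.062, adjusted p = 8.8e-05), and Igf2bp1, of the same family, to 24.4 FPKM in KO, against 39.0 FPKM in WT ESCs (log2 change −0.68, adjusted p = 0.00056). The receptor substrate gene Irs2 (log2 change −0.67, adjusted p = 0.0054) and the binding protein gene Igfbp3 (log2 change −0.55, adjusted p = 0.0075) also fell. At day 14 Igfbp4 fell to 12.1 FPKM in KO, against 23.7 FPKM in WT cells (log2 change −0.96, adjusted p = 0.031), and Igfbp6 rose to 196 FPKM in KO, against 61.2 FPKM in WT cells (log2 change 1.73, adjusted p = 0.034).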

How the data were processed

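RNA was poly(A)-selected and sequenced as 150 bp pairs in 12 libraries, 3 per group. Per the labels, the authors aligned reads to mm10 with HISAT2 2.0.5, counted fragments per gene with featureCounts 1.5.0-p3 and deposited FPKM per gene and library. The annotation release, the strand setting and the DESeq2 version behind the authors' own tests are not given in the sources used here. FPKM times gene length gave whole fragments for 100% of values within 0.001. Depth was 16638790 to 19226488 fragments, and intervals of pooled fragments (95%, exact) cover counting error only.

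Groups came from the labels. Genes were kept where 3 or more libraries of the fit reached 0.1 FPKM, and log2(FPKM + 0.1) was tested with limma 3.58.1 (R 4.3.3; trended empirical Bayes, Benjamini-Hochberg over all genes tested), with only the 2 groups compared in each fit and all 12 libraries for the difference between days. An adjusted p under 0.05 was called. An exact permutation test of 3 against 3 cannot go below 0.1 and was not used. Tables and plots used Python 3.11.15, pandas 2.3.3, scipy 1.17.1 and matplotlib 3.10.9. Other settings tried were an added 1 or 0.01 in place of 0.1, a stricter filter (1 FPKM) or none, median-ratio scaling, TPM, voom on fragments, library weights, the replicate number as a block, all 4 groups in one fit and each library left out, and these kept the gene set of the main fit except where the filter changed. In TPM the median log2 change of all genes, KO against WT, was 0.11 at day 0 and −0.11 at day 14. With FPKM as deposited it was −0.0043 and 0.028. The scripts were tested on simulated data. Exon sharing was read from GENCODE vM21, and promoter sequences are those of RefSeq on GRCm38.p6. All 40 members could be named, with genes that overlap or are the source copy of a member and, of each other list, up to 4 genes with the smallest adjusted p. The members and gene lists were chosen with earlier results of these data known.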

Additional observations from a re-analysis of the deposited data

Results flagged for a closer look

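For 7 imprinted genes the effect of KO at day 14 differed from that at day 0 by the test of the difference itself (limma, log2 scale, 12 libraries, 7.13% of all genes tested). The difference was positive for H19 (3.62), where KO cells had 89.5% of the WT level at day 14 and KO ESCs had 6.59% of it. It was also positive for Snrpn (1.10), Mirg (1.05) and Impact (0.85), which had 116%, 113% and 107% of the WT level in KO cells at day 14 and 53.6%, 52.8% and 59.4% in KO ESCs. The difference was negative for Slc22a18 (−1.72), with 16.9% of the WT level in KO cells at day 14 and 57.1% in KO ESCs, for Peg12 (−1.09), with 9.52% at day 14 and 36.7% in ESCs, and for Cdkn1c (−0.75), with 12.8% at day 14 and 20.3% in ESCs. H19, Snrpn, Mirg, Impact and Slc22a18 passed the test under all 21 alternatives, while Cdkn1c was lost under 12 and Peg12 under 14. The part of cell composition in the day 14 values was not tested.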

How the results depend on the processing

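No log2 change that was called reversed under an alternative. Of members lower in KO at day 0 the count was 11 to 17 over all alternatives and 12 to 14 without any 1 library, against 14. The 1 member higher at day 0 became 2 with a filter of 1 FPKM, voom or library weights, 0 in TPM, with the replicate block or with all 4 groups in one fit, and 0 to 1 without any 1 library. At day 14, 0 were higher, and 1 with library weights. The 4 lower at day 14 became 7 with voom, 15 with library weights, 2 with the replicate block (Slc22a18, adjusted p = 0.091, and Peg12, adjusted p = 0.12, were lost), 10 with all 4 groups in one fit and 3 to 10 without any 1 library, with 10 reached without WT replicate 3. In WT, 8 members fell by day 14 with library weights, against 4. The 7 differences between days became 19 with library weights and 5 to 14 without any 1 library, with 14 reached without WT replicate 3 of day 14. The cause was not tested. Under most of these settings the share of all genes called was not counted, so a general change in the number of calls cannot be told apart. Without WT replicate 3, 5.00% of all genes fell at day 14, against 0.883% in the main fit. Replicate numbers did not pair the libraries (correlations of −0.234 to 0.022), and with the replicate block 12 members were lower at day 0 (Slc22a18, adjusted p = 0.056, and Grb10, adjusted p = 0.092, were lost) and 6 differed between days. Depth limits the low members: Peg12 at day 14 and Slc22a18 at day 0 had at most 50 and 44 fragments in a library, and Dlk1, Rtl1, Snurf, Kcnq1, Rian, Rasgrf1 and Slc22a3, with 0 to 36 fragments in a library, did not pass the filter in any comparison.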
